A study of Homo sapiens with 6 samples.

Results

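The keratins are the intermediate filament proteins of epithelial cells. Their genes were followed in HEK293T, a line derived from human embryonic kidney, in cells transfected to express VRTN. The family was taken as every non-control probe set annotated to a gene whose symbol is KRT directly followed by a number, without pseudogenes or keratin-associated proteins. This gave 58 probe sets of 55 genes among 29183 tested probe sets, which name 19085 genes. One group received pNTAP-2×flag-VRTN, a plasmid with a flag tag and the coding sequence of pig VRTN, and the other received the pNTAP-2×flag vector without an insert. VRTN (vertnin) is a protein whose gene has been linked to vertebral number in pigs. Each group had 3 arrays, called biological replicates in the labels, from total RNA taken 24 hours after transfection. Both groups share the line, the vector and the transfection, and an untransfected group was not analysed here. The labels give neither the share of cells that took up plasmid nor a selection, so each array averages over all cells of a sample. The labels do not say whether replicates came from separate cultures, so p-values measure only the spread between these samples, which may be technical.

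Keratin filaments are built from pairs of a type I (acidic) and a type II (basic) chain, and neither type forms filaments alone. Simple epithelia use KRT8 with KRT18, joined in many ducts and glands by KRT7, KRT19 and, in the gut, KRT20. Stratified epithelia such as the epidermis use KRT5 with KRT14 in the basal layer, KRT1 with KRT10 above it, and KRT6 isoforms with KRT16 and KRT17 under stress or repair. Other keratins build the hair shaft and the root sheath around it. The type II genes and KRT18 form a cluster on chromosome 12, with 26 type II genes measured there, and the type I genes form a cluster on chromosome 17, with 27 measured.

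The windows of sequence just before the start of 3 keratin genes are shown because these genes carry the contrasts described further on. KRT8 had the widest difference between the groups among keratins. KRT35 and KRT36 are neighbouring hair keratin genes whose 3 arrays per group lay apart in opposite directions. None of the 3 genes had an adjusted p under 0.05 in the main limma fit. KRT35 and KRT36 read below the median of the negative controls on all 6 arrays. Groups lay apart in 10.3% of keratin probe sets and in 11.3% of all tested, and KRT36 was chosen after its values were seen. Each window holds the 250 bases before the start, read 5′ to 3′ on the minus strand, from RefSeq on GRCh38.p14. Capitals mark matches, on either strand, to TATAAA (the letters of the TATA box), to CCAAT (those of the CCAAT box) and to GGGCGG (those of a GC box), and no match overlapped another here. The KRT8 window lies at chr12:52926470-52926719, the KRT35 window at chr17:41481152-41481401 and the KRT36 window at chr17:41489911-41490160.
KRT8: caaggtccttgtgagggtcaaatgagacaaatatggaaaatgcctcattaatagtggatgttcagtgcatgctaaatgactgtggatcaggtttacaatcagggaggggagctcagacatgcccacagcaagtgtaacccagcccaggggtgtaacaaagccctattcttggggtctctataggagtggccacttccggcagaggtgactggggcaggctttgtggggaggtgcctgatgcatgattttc
KRT35: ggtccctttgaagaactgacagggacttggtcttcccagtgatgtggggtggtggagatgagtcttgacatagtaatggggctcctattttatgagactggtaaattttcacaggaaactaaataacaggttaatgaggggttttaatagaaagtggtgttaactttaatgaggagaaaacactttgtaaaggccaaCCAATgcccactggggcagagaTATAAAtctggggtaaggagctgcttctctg
KRT36: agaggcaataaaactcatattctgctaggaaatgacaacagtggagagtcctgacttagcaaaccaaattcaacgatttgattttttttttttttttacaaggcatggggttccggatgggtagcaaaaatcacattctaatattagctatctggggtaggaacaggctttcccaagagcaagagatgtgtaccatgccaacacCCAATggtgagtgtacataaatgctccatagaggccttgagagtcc

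In the KRT35 window, TATAAA began at position -31 and CCAAT at position -53, counted back from the start. The KRT36 window held CCAAT at position -46. The KRT8 window, the only 1 available for the gene, held none of the 3 motifs, and sequence before its other starts was not examined. The printed KRT8 start is not the outermost start of the gene in the RefSeq table, and the KRT8 probe set lists all 4 RefSeq transcripts of the gene, so the array does not tell its starts apart. The table held 38 windows for 34 of the keratin genes, and TATAAA occurred in 21 of them (55.3%), against 10.7% of 35116 windows of all genes. By class, 11 of 14 hair keratin genes, 6 of 8 root sheath genes, 3 of 8 stratified genes, 1 of 2 other epithelial genes and 0 of 2 simple epithelial genes held it. CCAAT occurred in 44.7% of keratin windows and in 32.0% of all windows. GGGCGG occurred in 10.5% of keratin windows and in 42.6% of all windows. These are matches of letters in a window and describe no binding.

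Levels are log2 signals after RMA, which corrects background, gives all arrays 1 distribution and summarises the probes of a set. They are set here against the array's own median over negative controls (5.36 to 6.13), a mark of level and not a detection limit, since the 95th percentile of those controls was 10.53 to 11.12. No keratin exceeded that percentile on any array, while 913 of 29183 tested probe sets did on at least 1. The negative control median was exceeded on all 6 arrays by 24.1% of keratin probe sets and by 54.1% of all tested probe sets. Signals of different probe sets cannot be ranked as amounts of RNA, because probes differ in their response. The VRTN probe set, which was designed for the human gene, read 6.25, 6.22 and 6.07 in VRTN arrays, against 5.19, 4.98 and 5.14 in empty vector arrays (log2 fold change 1.07, SE 0.086, limma adjusted p = 0.0194). Of 5 markers of the kidney line (VIM, NEFM, NEFL, NES and LIN28B), 4 exceeded the negative control median on all arrays. KRT8, KRT18 and KRT19 did so too, while only KRT14 of the keratinocyte markers KRT5, KRT14, TP63, IVL and LORICRIN did. Mean signals of the hybridisation spikes, added after labelling, were 10.60 ± 0.10 in VRTN arrays and 10.24 ± 0.19 in empty vector arrays (SD, n = 3 each, exact permutation p = 0.1, the smallest that 3 against 3 allows). Their part in the results was not tested.

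KRT8, the type II keratin of simple epithelia, read about 2-fold higher in VRTN cells, while its type I partner KRT18 and the other simple epithelial keratins differed by 0.12 or less on the log2 scale. The KRT8 signals were 9.19, 8.98 and 8.65 in VRTN arrays, against 7.81, 8.02 and 7.82 in empty vector arrays. Every VRTN array was above every empty vector array. The log2 fold change was 1.06 (SE 0.14), a 2.08-fold difference with a 95% interval of 1.67 to 2.60, and the limma p was 7.1e-05 before and 0.231 after Benjamini-Hochberg adjustment over 29183 probe sets. KRT8 therefore did not pass the threshold of 0.05, although it ranked 9th by p. With array weights estimated by limma its adjusted p was 0.0455 and its log2 fold change 1.03. Over 19 alternatives its log2 fold change stayed between 0.89 and 1.20, and its adjusted p was between 0.0455 and 1.00.

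KRT18, the type I partner of KRT8, has 2 probe sets named for it alone. The probe set that lists the KRT18 transcripts read 9.14, 8.94 and 8.95 in VRTN arrays, against 8.97, 8.83 and 8.86 in empty vector arrays, and the groups overlapped. Its log2 fold change was 0.12 (SE 0.083), with a limma p of 0.183 before and 0.947 after adjustment. With a replicate block in limma, these were 0.0761 and 0.476. The second, brighter probe set is named KRT18 by the platform annotation, while the deposited table lists MIR622 transcripts and none of KRT18 for it. It read 9.25, 9.11 and 9.10 in VRTN arrays and 9.09, 9.24 and 9.11 in empty vector arrays, a log2 fold change of 0.01 (SE 0.077). The 2 probe sets therefore gave different values for 1 gene name, and neither passed the threshold. One more probe set, shared by MIR622 and KRT18, which is not counted among the 58, had a log2 fold change of 0.08 (SE 0.065).

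The change of KRT8 was set against that of KRT18 within each array. KRT8 minus the KRT18 probe set that lists KRT18 transcripts was 0.05, 0.04 and -0.30 in VRTN arrays, against -1.17, -0.81 and -1.04 in empty vector arrays. Every VRTN array lay above every empty vector array in this difference. The change of KRT8 exceeded that of KRT18 by 0.94 on the log2 scale against this probe set, by 1.05 against the brighter one and by 0.98 against the shared one. Against KRT19 it was 1.13 and against KRT7 1.11. Each of these 5 comparisons gave an exact two-sided permutation p of 0.1, the smallest that 3 arrays against 3 allow. None could therefore reach 0.05, and adjustment over the 5 cannot lower it. All 5 use the same KRT8 values, so they are not independent results.

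**Figure D1:**
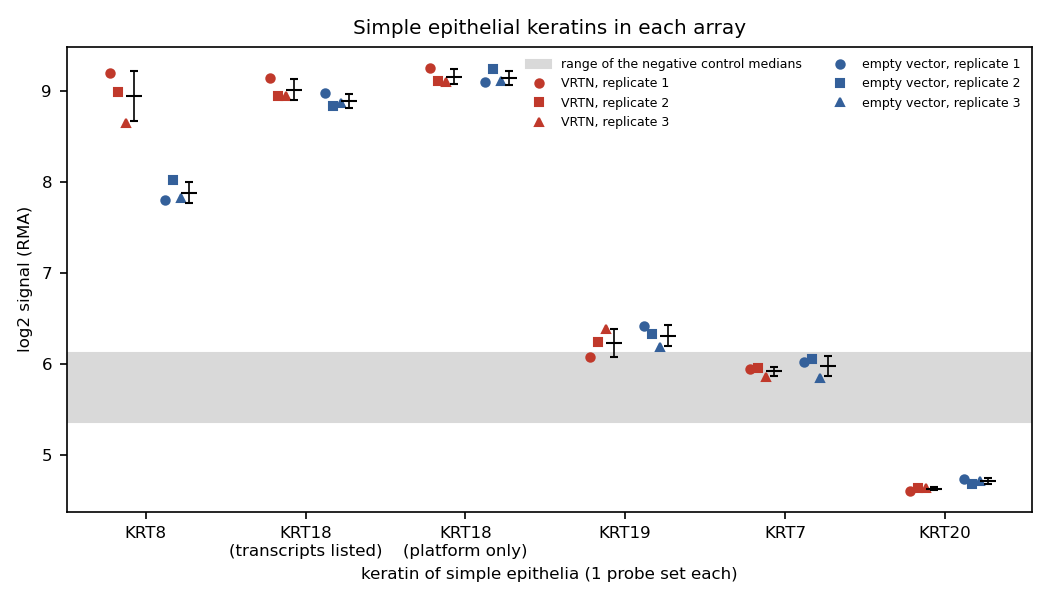
Log2 RMA signal (vertical axis) of the 6 probe sets of simple epithelial keratins in each array, with VRTN arrays in red left of empty vector arrays in blue. Bars are the mean ± SD of 3 arrays, and the grey band is the range of the negative control medians. KRT8 lies between 8.65 and 9.19 in VRTN arrays and between 7.81 and 8.02 in empty vector arrays, while the groups overlap for both KRT18 probe sets, KRT19 and KRT7.

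The remaining simple epithelial keratins lay much closer to the negative controls. KRT19, a type I keratin that lacks the usual tail domain, read 6.07, 6.25 and 6.38 in VRTN arrays, against 6.42, 6.33 and 6.19 in empty vector arrays. It exceeded the negative control median on all 6 arrays, and the groups overlapped (log2 fold change -0.08, SE 0.10, limma adjusted p = 0.985). KRT7, a type II keratin of ducts and glands, read 5.95, 5.96 and 5.86 in VRTN arrays and 6.02, 6.05 and 5.85 in empty vector arrays (log2 fold change -0.06, SE 0.079). KRT20, a type I keratin of the gut lining, was below the negative control median on all 6 arrays. Its signals were 4.61, 4.64 and 4.64 in VRTN arrays, against 4.74, 4.68 and 4.71 in empty vector arrays. The KRT20 groups did not overlap, but the log2 fold change was -0.08 (SE 0.062) with a limma p of 0.225.

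Across the family, 0 of 58 keratin probe sets passed an adjusted p of 0.05 in limma, where 4 of the 29183 tested passed (0.0137%). At an unadjusted p under 0.05 there were 2 keratins (3.45%), against 5.58% of all tested probe sets. These were KRT8, on the higher side, where 2.65% of all probe sets lay, and KRT35, on the lower side, where 2.92% lay. A replicate block gave counts of 2 of 58 unadjusted, against 11.5% of all, and 0 adjusted, against 0.0274%. With array weights, 1 keratin (KRT8) passed the adjusted threshold, against 0.048% of all. KRT8 alone exceeded a 1.5-fold difference, as 0.199% of all tested probe sets did. The median log2 fold change of the 58 was 0.0024, with 30 above and 28 below 0, and that of all tested probe sets was -0.0049. Leaving out KRT8 and KRT35, the log2 fold changes lay between -0.16 and 0.20.

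**Figure D2:**
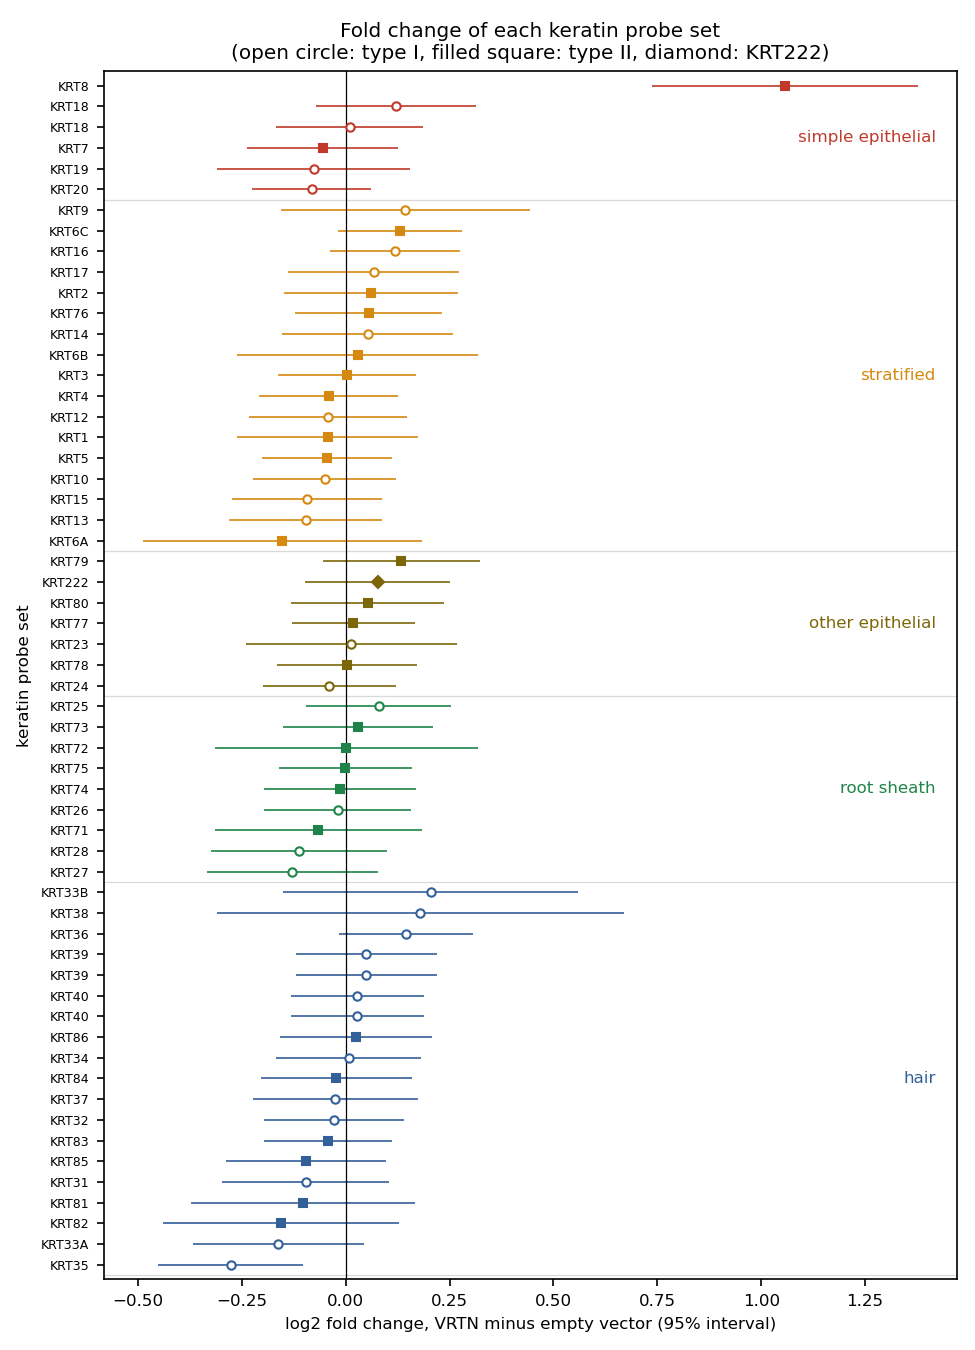
Log2 fold change of VRTN over empty vector (horizontal axis) with its 95% interval from limma for each of the 58 keratin probe sets, grouped by class from top to bottom. The interval excludes 0 for KRT8, at 1.06, and for KRT35, at -0.28. KRT39 and KRT40 each appear as 2 probe sets with the same values.

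In 6 of 58 keratin probe sets (10.3%) the 3 VRTN arrays did not overlap the 3 empty vector arrays, against 11.3% of all tested probe sets. VRTN was higher for KRT8, KRT16, KRT6C and KRT36 and lower for KRT20 and KRT35. KRT16, KRT6C and KRT36 are named because their groups did not overlap, a choice made after their values were seen. None of the 6 passed the adjusted threshold.

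The stratified keratins, 17 probe sets of 17 genes, had a median log2 fold change of 0.00, and 6 of them exceeded the negative control median on all arrays. The basal layer pair gave 5.31, 5.34 and 5.45 for KRT5 in VRTN arrays, against 5.41, 5.42 and 5.40 in empty vector arrays. KRT14 read 6.55, 6.47 and 6.67 in VRTN arrays and 6.39, 6.51 and 6.63 in empty vector arrays, so the groups overlapped for both partners. KRT16, which is induced in injured epidermis, read 6.58, 6.58 and 6.54 in VRTN arrays, against 6.37, 6.51 and 6.46 in empty vector arrays (log2 fold change 0.12, SE 0.068, limma adjusted p = 0.929). KRT6C, a type II keratin of the KRT6 group, read 7.30, 7.30 and 7.22 in VRTN arrays, against 7.14, 7.16 and 7.13 in empty vector arrays (log2 fold change 0.13, SE 0.064, limma adjusted p = 0.905). Both differences were small and neither passed the threshold. The class reached from 0.14 for KRT9, a type I keratin of palm and sole skin, to -0.15 for KRT6A, with SEs of 0.13 and 0.15. KRT6A, KRT6B and KRT6C are close paralogs, so their probe sets may share signal.

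The hair keratins, 19 probe sets of 17 genes, had a median log2 fold change of -0.02, and 3 of them exceeded the negative control median on all arrays. KRT35, a type I keratin of the hair shaft, read 4.96, 4.94 and 4.96 in VRTN arrays, against 5.14, 5.35 and 5.21 in empty vector arrays, below the negative control median in all 6. The groups did not overlap, with a log2 fold change of -0.28 (SE 0.075) and a limma p of 0.00669 before and 0.703 after adjustment. KRT36, the neighbouring gene, also below that median in all 6, read 4.79, 4.77 and 4.88 in VRTN arrays, against 4.74, 4.63 and 4.65 in empty vector arrays (log2 fold change 0.14, SE 0.069, limma adjusted p = 0.900). KRT33B had the highest fold change of the class, 0.20 (SE 0.15), from 6.05, 6.60 and 6.04 in VRTN arrays against 6.08, 6.09 and 5.89 in empty vector arrays. VRTN replicate 2 stood above the other arrays, and the groups overlapped. KRT38 had the largest SE of all members, 0.21, with 1 empty vector array at 4.70 and the other arrays between 5.20 and 5.57. The 13 type I hair probe sets had a median of 0.03, with 8 above and 5 below 0, and the 6 type II hair probe sets had a median of -0.07, with 1 above and 5 below 0. The difference between the types was not tested.

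The root sheath keratins, 9 probe sets, exceeded the negative control median on all arrays in 0 cases, with a median log2 fold change of -0.01. They reached from 0.08 for KRT25 to -0.13 for KRT27, both type I keratins of the inner root sheath. The 7 other epithelial keratins reached from 0.13 for KRT79, which read 6.26, 6.46 and 6.37 in VRTN arrays and 6.16, 6.33 and 6.20 in empty vector arrays, to -0.04 for KRT24. Their median was 0.02. By type, the 31 type I probe sets had a median of 0.01 and the 26 type II probe sets 0.00. KRT222 belongs to neither type in the class list used.

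**Figure D3:**
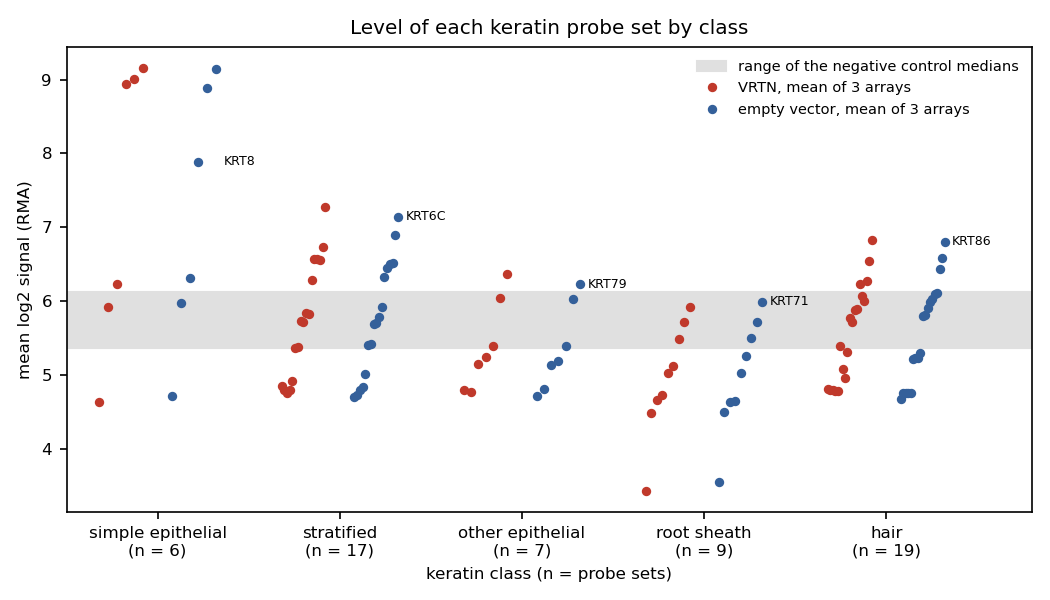
Mean log2 RMA signal over 3 arrays (vertical axis) of each keratin probe set by class, with VRTN in red left of empty vector in blue. The grey band is the range of the negative control medians. The KRT18 and KRT8 probe sets stand above every other keratin in both groups, and most root sheath keratins lie below the band.

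The neighbours of KRT8 on chromosome 12 were read in the order of the RefSeq table. On one side, the keratin genes KRT78, KRT79, KRT4 and KRT3 had log2 fold changes of 0.00, 0.13, -0.04 and 0.00. On the other side, EIF4B, a translation initiation factor gene beyond KRT18, had 0.01, TNS2 had 0.26 (SE 0.065, limma adjusted p = 0.639) and SPRYD3 had -0.06. Only KRT8 differed by more than 1.5-fold among these. The RefSeq intervals of KRT8 and KRT18 overlap. The probe sets of keratin pseudogenes, left out of the family, gave log2 fold changes of 0.04 for KRT8P41, -0.10 for KRT18P55 and -0.03 for KRT18P59. KRT17P5 gave 0.10 on a probe set and 0.06 on another.

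Genes that work with keratins were read from 4 lists. Of 15 other intermediate filament genes 0 passed the adjusted threshold and 0 had an unadjusted p under 0.05 in limma (median log2 fold change -0.03). Vimentin (VIM), the filament protein of mesenchymal cells, read 11.13, 11.09 and 11.26 in VRTN arrays and 11.31, 11.15 and 11.34 in empty vector arrays. DES, which encodes muscle desmin, had 0.09, and NEFM, a neurofilament gene, had -0.19 (SE 0.086, limma adjusted p = 0.892). Of 25 genes of keratin linkers and desmosomes, the junctions that anchor keratin filaments, 0 passed after adjustment (median -0.01). At an unadjusted p under 0.05 there were 2 (8.0%), both higher, against 5.58% of all tested probe sets and 2.65% on the higher side. JUP, which encodes plakoglobin, read 9.69, 9.50 and 9.58 in VRTN arrays, against 9.29, 9.22 and 9.30 in empty vector arrays (log2 fold change 0.32, SE 0.074, limma adjusted p = 0.604). The other was DSG1, a desmosomal cadherin gene of the epidermis, at 0.29 (SE 0.086) and under the negative control median throughout. The lowest p on the lower side was that of PKP4, at -0.09.

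Of 30 listed regulators of keratin genes 29 were measured, and 0 passed after adjustment (median -0.04). At an unadjusted p under 0.05 in limma, 2 were higher and 1 lower (10.3% together, against 5.58% of all tested probe sets). GRHL3, an epidermal transcription factor gene, read 6.93, 6.53 and 6.34 in VRTN arrays, against 6.23, 6.27 and 6.01 in empty vector arrays (log2 fold change 0.43, SE 0.15, limma adjusted p = 0.830). JUNB, an AP-1 subunit gene, had 0.22 (SE 0.093), and KLF5, a Krüppel-like factor gene of epithelia, had -0.19 (SE 0.076). The list of keratin-associated protein genes, whose products fill the hair shaft between keratin filaments, held 68 genes taken by symbol. It includes KRTAP5-AS1, named as an antisense RNA, which had the list's highest log2 fold change, 0.33 (SE 0.21, limma adjusted p = 0.933). Of the 68, 0 passed the adjusted threshold (median 0.02). At an unadjusted p under 0.05 there was 1 (1.47%, against 5.58% of all tested probe sets), KRTAP4-5 at 0.22. With the replicate block the unadjusted count was 4 of 68, against 11.5% of all tested probe sets, and the adjusted count stayed 0. The genes added were KRTAP10-9, KRTAP23-1 and KRTAP11-1, named after their values were seen, with log2 fold changes of 0.23, 0.17 and 0.15. KRTAP13-3 had the smallest p on the lower side, at -0.16 (SE 0.071). Shares of all probe sets at the same thresholds are those given above, 0.0137% and 5.58%.

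**Figure D4:**
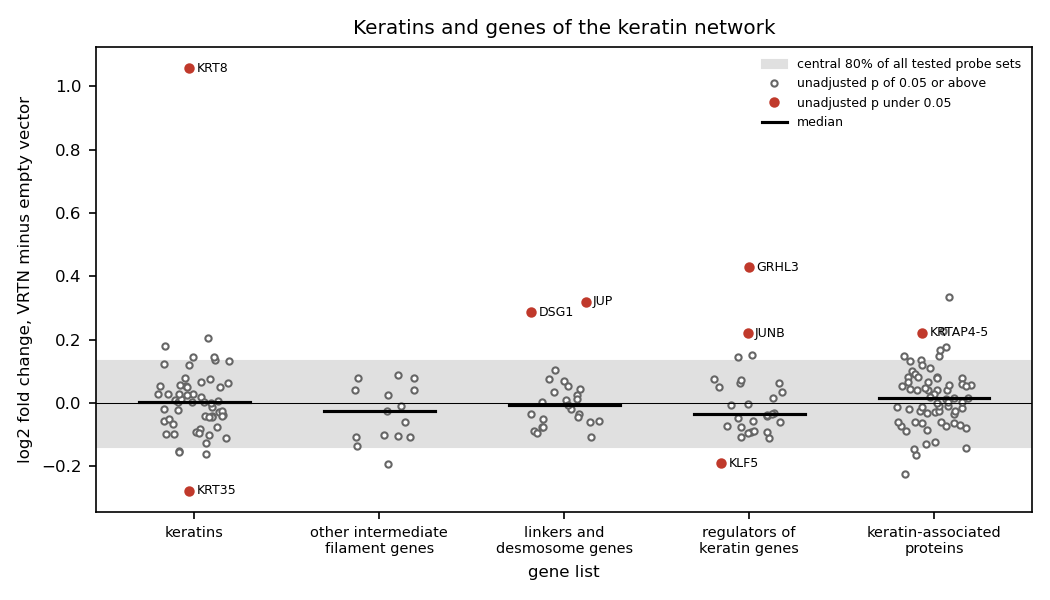
Log2 fold change of VRTN over empty vector (vertical axis) for the 58 keratin probe sets and the genes of 4 related lists, 1 point each. Red points have an unadjusted limma p under 0.05, black lines are list medians and the grey band holds the central 80% of all tested probe sets. KRT8 is the highest point, at 1.06, and no list median lies further from 0 than -0.04.

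Epithelial adhesion genes were read as markers of epithelial character beside KRT8. EPCAM, an epithelial adhesion molecule, has 2 probe sets, each above the negative control median on only 2 of 6 arrays. The brighter read 6.34, 5.90 and 5.80 in VRTN arrays, against 5.55, 5.36 and 5.45 in empty vector arrays (log2 fold change 0.56, SE 0.14, limma adjusted p = 0.639). The other had 0.98 (SE 0.24, limma adjusted p = 0.639), with differences between same-numbered arrays of 1.07, 1.68 and 0.19. For this other probe set, the deposited table sets the EPCAM transcripts apart by a mark whose meaning is not stated. Whether it reads EPCAM alone was not tested. CDH1, which encodes E-cadherin, had 0.33 (SE 0.10, limma adjusted p = 0.787). CLDN4 and CLDN7, claudin genes of tight junctions, had -0.03 and -0.05. None of these passed the adjusted threshold. Of the 4 genes, only CDH1 exceeded the negative control median on all arrays. The summed linear signal of the 4 was 323 to 351 in VRTN arrays, against 264 to 289 in empty vector arrays. This sum is weighted to the brightest probe set, that of CDH1, and is not an amount of RNA. The part of these genes in the KRT8 difference was not tested.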

How the data were processed

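Per the file headers, the authors deposited log2 signals made by RMA at gene level. The submitters' processing notes name Affymetrix Expression Console 1.0. Per the labels' protocols, 500 ng of total RNA was labelled with biotin for each Affymetrix human gene array. The genome build is not given in the sources used here. RMA makes the distributions of the arrays equal, which hides any change common to most transcripts. The number of arrays, 3 per group, limits the precision. Of 33297 probe sets, 4114 controls were left out, and 0 differed between the 2 deposited tables (tolerance 0.0001).

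Of the 58 keratin probe sets, 51 were named by the platform annotation and 7 from RefSeq accessions in the deposited table. A further 3 that list a keratin but could not be named for it alone were left out. They list KRT18 with MIR622, KRT16 with its pseudogenes, and KRT17, with log2 fold changes of 0.08, 0.08 and 0.05. KRT39 and KRT40 each have 2 probe sets with identical values. The KRT86 probe set also lists KRT81 transcripts.

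VRTN and empty vector arrays were compared by limma 3.58.1, run in R 4.3.3 (lmFit, eBayes, two-sided, no filter), with p-values adjusted by Benjamini-Hochberg over 29183 probe sets at 0.05. Python 3.11.15, pandas 2.3.3 and matplotlib 3.10.9 were also used. Named genes were the simple epithelial keratins, keratins with an unadjusted p under 0.05, the extremes of each other class and, in each related list, the smallest p in each direction. DSG1, JUNB and TFAP2C fall outside this rule. They were named after their values were seen, for an unadjusted limma p under 0.05 without or with the replicate block. A gene was represented by its brightest probe set. The members, classes and lists were chosen with earlier results of these data known. Same-numbered arrays deviated together, with correlations of 0.535, 0.157 and 0.499 across probe sets, so the samples may be paired by number. No paired design is stated, so the main fit had no block, and its p-values leave such pairing out. The replicate block was an alternative, in which 11.5% of all tested probe sets had an unadjusted limma p under 0.05, against 5.58% without it. On simulated data for VRTN against empty vector on 29183 probe sets, the fit recovered 56.1% of 1.5-fold, 86.9% of 2-fold and 97.0% of 3-fold changes. The simulated noise was independent between arrays, unlike the shared deviations above, and the number of changed probe sets was set in advance. The shares recovered therefore need not hold for these arrays.

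The alternatives changed the input (second table, quantiles or medians over tested probe sets, without the dimmest 40 percent, probe sets averaged per gene, none with several symbols), the fit (replicate block, weighted arrays, unmoderated variance, trended robust prior) or the arrays used (each left out in turn, and each number in both groups). Each gene once by its brightest probe set, and the KRT18 probe set that lists KRT18 transcripts, were added after the data were seen.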

Additional observations from a re-analysis of the deposited data

How the results depend on the processing

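The count of keratins at an unadjusted p under 0.05, 2 in the limma fit without a block, was 9 with array weights (12.7% of all tested probe sets had such a p), 6 without variance moderation (6.06%) and 1 without the dimmest 40 percent of probe sets (6.60%). Leaving out arrays gave 1 to 3, where 2.47% to 6.80% of all tested probe sets had such a p, with 1 without replicate 2 in both groups (2.47%). The count past the adjusted threshold, 0 otherwise, was 1 with array weights (KRT8, log2 fold change 1.03, adjusted p = 0.0455). The weights were 0.60, 3.49 and 0.71 for the VRTN arrays and 0.52, 1.73 and 0.75 for the empty vector arrays. With the replicate block, the counts of keratins were 2 and 0, and KRT8 had an adjusted p of 0.121. No keratin and no member of the 4 related lists crossed the adjusted threshold under the block, while the count over all tested probe sets was 8, against 4 without it. At an unadjusted p under 0.05 the block gave 4 of 29 regulators, against 3 without it (TFAP2C was added). In the keratin-associated list it gave 4 of 68 genes, against 1. The share over all tested probe sets also rose, from 5.58% without the block to 11.5% with it. The change of KRT8 over that of KRT18 on the brighter KRT18 probe set, which lists no KRT18 transcripts, is 1.05 with or without the block by construction, and it was 0.94 on the probe set that lists them. The first of these ranged from 0.96 to 1.17 when arrays were left out. It could not be computed anew for settings that alter only the spread or the filter. The fold change of KRT18, on its brighter probe set, turned to -0.0495 with array weights and ranged from -0.0636 to 0.0748 when arrays were left out. The probe set that lists KRT18 transcripts kept its direction with array weights, at 0.104. Its differences between same-numbered arrays were 0.17, 0.11 and 0.08. KRT19 ranged from -0.212 to 0.0557. KRT6A was 0.0112 with array weights and ranged from -0.284 to 0.0623, and KRT9 ranged from -0.0202 to 0.337. Of 390 values for 21 named genes under the alternatives, 379 kept direction and side of the threshold. The median over all keratins stayed between -0.03 and 0.02, and the medians by class and type between -0.07 and 0.08, and each of these medians changed sign under some alternative. The cause of these changes was not tested. Of 58 keratin probe sets, 24 lay below the negative control median on all arrays, as did 9423 of all 29183 tested probe sets. Signals near or below that median limit what can be read from the dim classes.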
